A study of Mus musculus with 4 samples.

Results

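The myogenic transcription factors are 8 genes, taken by symbol out of the 52022 annotated genes to which deposited transcripts were assigned: Pax7, the myogenic bHLH factors Myf5, Myod1, Myog and Myf6, and the MEF2 factors Mef2a, Mef2c and Mef2d. They were measured by RNA-seq in brown adipose tissue of male mice in 2 groups. The KO group has 2 libraries of mice that lack ATF4 in thermogenic adipocytes, and the WT group has 2 libraries of their wild-type counterparts. In both groups the mice were fed ad libitum and had received a high-fat diet (60% fat) over 12 weeks. The sources used here give neither the driver of the deletion nor the age of the mice. They also do not say whether each library is 1 animal, so errors and p-values describe only how far these libraries spread. The genes were chosen by what these same libraries had shown, namely that skeletal muscle genes lead the difference in read counts between KO and WT, so their values in that contrast are given as a description, with no test.

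Skeletal muscle forms through a chain of transcription factors. PAX7 marks satellite cells, the stem cells that lie against muscle fibres. MYF5 and MYOD1 commit cells to the muscle lineage as myoblasts, myogenin (Myog) drives their differentiation and fusion, and MYF6, also called MRF4, is the member that predominates in mature fibres. The MEF2 proteins are MADS-box factors that act with the bHLH factors on muscle promoters, but they are also present in endothelium, lymphocytes, neurons and many other cells. Brown adipocytes of mice share a Myf5-expressing embryonic precursor with muscle, and interscapular brown fat lies against muscle of the back.

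The libraries held 25985367 and 30405113 estimated counts in KO and 32714456 and 34813870 in WT. The 8 brown adipocyte markers, Ucp1 among them, were present in each library, with summed levels of 17314 and 14382 CPM, which is counts scaled to the library total, in KO against 14801 and 15873 in WT. Ucp1 and Fabp4 made up most of these sums. Dio2 was at 36.9 and 68.7 CPM in KO against 113 and 80.8 in WT, and Elovl3 at 81.4 and 23.3 in KO against 10.5 and 61.0 in WT. Of the 8 markers 0 passed the test described next, and 1, Dio2, fell when the library prefix given below was a block in it. Atf4, the targeted gene, was at 24.9 and 24.5 CPM in KO against 29.2 in WT 1 and 107 in WT 2, so the library labelled WT 1 was close to the KO level. Of 15643 genes tested with edgeR's quasi-likelihood test, 120 rose in KO and 2 fell at an adjusted p under 0.05, and 629 had an unadjusted p under 0.05. All 12 markers of the skeletal muscle fibre rose, and their summed level was 2971 and 2757 CPM in KO against 1.81 and 1.82 in WT. The library names start with S1 (KO 1, WT 2) or S2 (KO 2, WT 1), and what this prefix stands for is not given.

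Among the 8 regulators, the factor of mature fibres was the 1 bHLH gene with more than a few reads. All 5 genes of the muscle lineage proper, Pax7, Myf5, Myod1, Myog and Myf6, had 0 reads in both WT libraries. In KO they had 79 reads together, and 61 of these were from Myf6. The MEF2 genes were well expressed in both groups, and of them Mef2c and, by a narrow margin, Mef2d had a higher CPM in both KO libraries than in both WT libraries, while in TPM the groups overlapped for both genes. In the edgeR fit over all genes 4 of the 8 regulators were tested and 0 of these 4 passed, against 0.78% of all genes tested. Whether Myf6 passed changed with the model and with the library left out, and nothing is read from it. Both KO libraries were above both WT libraries for 6 of the 8, and for 3 of the 4 that passed the filter on low counts, against 13.1% of all genes tested. Nothing is read from these shares, since the contrast chose the genes.

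Pax7, the satellite cell factor (ENSMUSG00000028736, chromosome 4, 139737062 to 139833528, minus strand, GRCm38), had 3 reads in KO 1 and 2 in KO 2, whereas WT 1 had 0 and WT 2 had 0. Both KO libraries were above WT, by single reads. A count of 0 allows up to 3 reads, which is 0.0955 CPM in WT 1 and 0.0816 CPM in WT 2. The KO levels were 0.117 and 0.0685 CPM, so KO 2 lies under both WT limits and a difference was not detectable there at this depth. No fold is given for so few reads. These limits and the intervals below cover counting error only.

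Myf5, the earliest bHLH factor of the lineage (ENSMUSG00000000435, chromosome 10, 107482908 to 107486134, minus strand), had 0 reads in KO 1 and 1 in KO 2, against 0 and 0 in WT. It was therefore at or under the limit in all 4 libraries, and no fold is given. Myod1, the myoblast determination factor (ENSMUSG00000009471, chromosome 7, 46376474 to 46379099, plus strand), had 3 reads in KO 1 and 1 in KO 2, against 0 and 0 in WT. Its KO level was 0.117 and 0.0343 CPM, the second of which is under the limit of both WT libraries. No fold is given for so few reads.

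Myog, the factor of differentiating and fusing myoblasts (ENSMUSG00000026459, chromosome 1, 134289989 to 134292548, plus strand), had 5 reads in KO 1 and 3 in KO 2, against 0 and 0 in WT. This was 0.195 CPM in KO 1 and 0.103 in KO 2. The exact 95% Poisson intervals of the KO counts, 1.62 to 11.7 and 0.619 to 8.77 reads, overlap that of 0 reads, which reaches 3.69, so a difference is not resolved in either library alone. Its promoter is shown because myogenin is controlled by the other members of the group, which bind E-boxes (CANNTG) and MEF2 sites. The 250 bases before its RefSeq start site (chr1:134289754-134290003, plus strand, GRCm38.p6) are printed 5′ to 3′, with capitals for each CANNTG and for the MEF2 core, which is TA, then 4 bases that are each A or T, then TA.
Myog promoter: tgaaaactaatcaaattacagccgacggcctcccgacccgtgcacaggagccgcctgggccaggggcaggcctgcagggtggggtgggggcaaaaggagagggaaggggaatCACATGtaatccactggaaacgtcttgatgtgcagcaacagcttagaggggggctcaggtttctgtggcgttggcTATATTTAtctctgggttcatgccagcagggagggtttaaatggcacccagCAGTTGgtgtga
The window held 2 E-boxes, CACATG and CAGTTG, which start 138 and 12 bases before the start site, and 1 MEF2 core, TATATTTA, which starts 63 bases before it. None of these overlapped another. Of 32851 mouse promoter windows of the same length, 66.2% held CANNTG on either strand, 8.56% the MEF2 core and 5.88% both. These matches describe the letters and are not measurements of binding.

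Myf6, the bHLH factor of mature fibres (ENSMUSG00000035923, chromosome 10, 107492853 to 107494737, minus strand), had 35 reads in KO 1 and 26 in KO 2, whereas WT 1 had 0 and WT 2 had 0. The exact 95% Poisson intervals of the KO counts were 24.4 to 48.7 and 17.0 to 38.1 reads. Both KO libraries were far above the limit that 0 reads allow in WT, and the level was at least 25.3-fold higher in KO. This and the later bounds set the KO reads, as counted, against 3 reads over both WT libraries. In CPM it averaged 1.13 ± 0.337 in KO and 0 in WT (SD, n = 2 each), with 1.37 in KO 1 and 0.891 in KO 2. It passed the filter on low counts through the KO libraries alone. Myf6 and Myf5 are neighbours on chromosome 10, with 6718 bases between them, and had 61 reads and 1 read in KO.

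**Figure D1:**
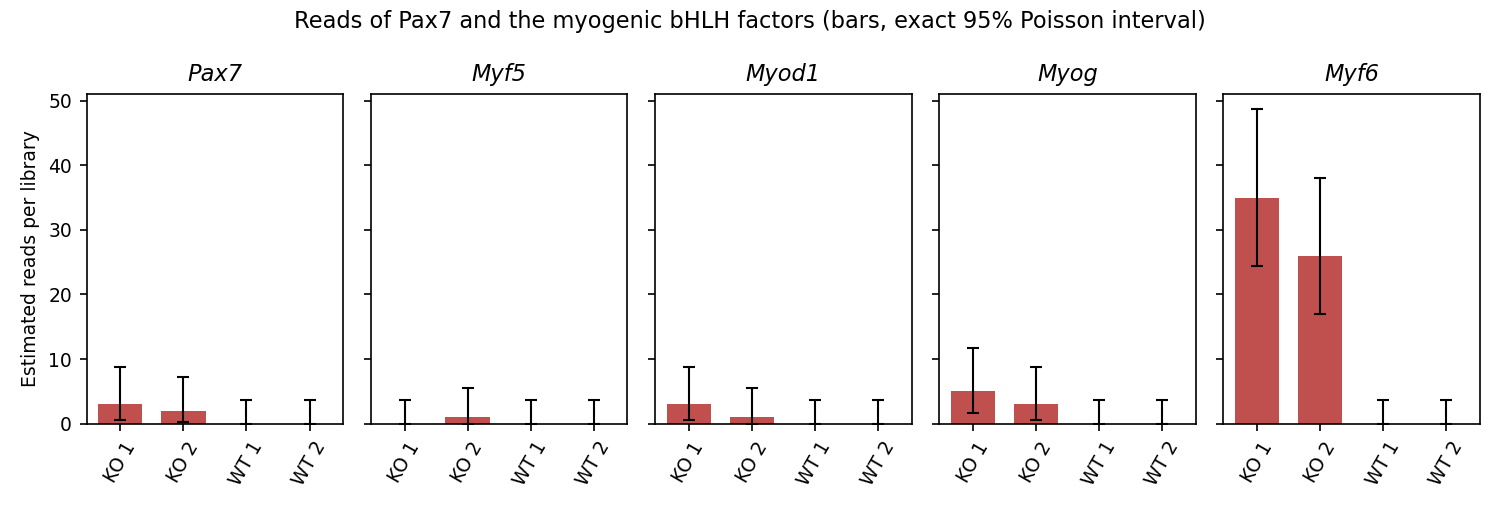
Estimated reads per library (vertical axis) of Pax7, Myf5, Myod1, Myog and Myf6 in KO 1, KO 2, WT 1 and WT 2, with exact 95% Poisson intervals as error bars. The WT bars are all at 0, Myf6 has 35 and 26 reads in KO, and none of the other genes has more than 5.

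The contrast between satellite cell, myoblast and fibre regulators was thus made within the KO libraries. Myf6 held 35 of the 46 reads of these 5 genes in KO 1 (76.1%, exact Clopper-Pearson 95% interval 61.2 to 87.4%) and 26 of 33 in KO 2 (78.8%, 61.1 to 91.0%). Both KO libraries therefore had more Myf6 reads than reads of Pax7, Myf5, Myod1 and Myog together. Per length, in TPM (the abundance of a gene's transcripts scaled for their length), Myf6 was at 1.11 and 0.825, Myog at 0.131 and 0.0782, Myod1 at 0.0611 and 0.0203, Pax7 at 0.0180 and 0.0119, and Myf5 at 0 and 0.0179 in KO 1 and KO 2. Myf6 held 84.2% and 86.5% of the TPM of the 5 genes. The order below Myf6 is not resolved, because the Poisson intervals of the read counts of Myog, Myod1 and Pax7 overlap in each KO library. The MEF2 genes stood above them all, in the order Mef2d, Mef2a and Mef2c in each of the 4 libraries. Relative to the fibre markers, Myf6 had 0.460 CPM in KO 1 and 0.323 CPM in KO 2 for each 1000 CPM of the 12 markers.

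Neither Myog nor Myod1 passed the filter on low counts, so genes of like pattern were sought for Myf6, a choice made after its values were seen. Likeness was the root mean square difference of log2 CPM (prior count 2), centred on each gene's mean over the 4 libraries. The nearest was Cacng6, a calcium channel gamma subunit of skeletal muscle, with 36 and 26 reads in KO against 0 and 0 in WT and a difference of 0.0168. Popdc3, a Popeye-domain protein of striated muscle, followed with 29 and 26 reads in KO against 0 and 0 in WT (0.112). Tpm2, beta-tropomyosin, was next at 198 and 151 CPM in KO against 9.49 and 11.9 in WT (0.151), then the deubiquitinase Usp13 at 8.94 and 6.44 CPM in KO against 0.255 and 0.354 in WT (0.180). The fifth was 2310065F04Rik, with 35 and 36 reads in KO against 0 and 0 in WT (0.191). With 4 libraries this likeness carries little beyond the size of the difference on this scale and the order of the KO libraries. The prior count limits that size for genes at 0 in WT. Myf6 differed by 4.46 within S1 and 3.88 within S2 on it, against a fitted log2 fold change of 8.12. Tpm2, with reads in both groups, had a fitted log2 fold change of 4.03.

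The MEF2 factors were measured with far more reads. Mef2d (ENSMUSG00000001419, chromosome 3, 88142372 to 88172086, plus strand) was the most abundant, with 3188 reads in KO 1 and 4149 in KO 2, whereas WT 1 had 3740 and WT 2 had 4534. In CPM this was 124 and 142 in KO against 119 and 123 in WT. KO 1 exceeded WT 2 by less than the gap between the WT libraries, so the groups barely separated. The log2 fold change of KO over WT was 0.14 (SE 0.18), with 0.01 within S1 and 0.26 within S2. In summed TPM the order differed, at 26.1 and 44.6 in KO against 36.8 and 37.0 in WT, so that KO 1 was lowest. A short processed transcript of 502 bases, Mef2d-205, gave 0.959 TPM in KO 1 and 8.99 in KO 2 against 7.01 and 4.51 in WT. The protein-coding Mef2d-204 also differed between the KO libraries, at 9.33 TPM in KO 1 and 17.6 in KO 2 against 12.4 and 14.4 in WT.

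Mef2a (ENSMUSG00000030557, chromosome 7, 67231163 to 67372858, minus strand) had 1331 and 2015 reads in KO against 1708 and 1998 in WT. Its level was 51.96 CPM in KO 1 and 69.0 in KO 2, against 54.4 and 54.3 in WT. The 2 KO libraries lay on either side of WT, and the log2 fold change was 0.15 (SE 0.20), with -0.06 within S1 and 0.34 within S2. Lysmd4 overlaps Mef2a and 1700113A16Rik overlaps Mef2d, each on the other strand. The strand setting of the authors' quantification is not given, so reads of such pairs may not be fully separated.

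Mef2c (ENSMUSG00000005583, chromosome 13, 83504034 to 83667080, plus strand) had 570 reads in KO 1 and 449 in KO 2, whereas WT 1 had 392 and WT 2 had 460. In CPM it was at 22.3 and 15.4 in KO, against 12.48 and 12.51 in WT. In CPM both KO libraries were above both WT libraries, which lay close to each other. In summed TPM the groups overlapped, at 3.94 and 2.61 in KO against 2.36 and 3.09 in WT, so that KO 2 was below WT 2. The mean was 18.8 ± 4.86 CPM in KO and 12.5 ± 0.0216 in WT (SD, n = 2 each). The log2 fold change was 0.59 (SE 0.22), with 0.83 within S1 and 0.30 within S2. Without KO 1 it was 0.30, without KO 2 it was 0.83, and with limma on log2(TPM + 1) it was 0.19.

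**Figure D2:**
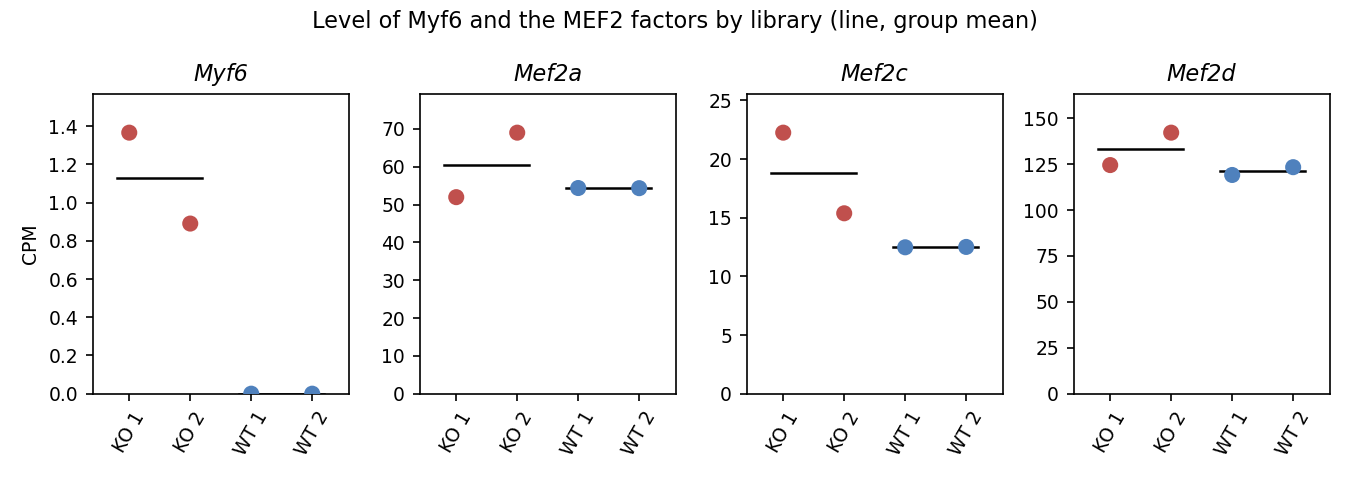
CPM (vertical axes, each from 0) of Myf6, Mef2a, Mef2c and Mef2d in the libraries KO 1, KO 2, WT 1 and WT 2, with the group mean as a line. Myf6 is at 0 in WT, both KO points of Mef2c lie above its WT points, and those of Mef2a lie on either side of WT.

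Each MEF2 gene has a pair of alternative exons that share both neighbouring exons and never stand together as whole exons in an annotated transcript. They follow the exons of the DNA-binding domain, and the choice between them is known to differ between muscle and other tissues. In Mef2c the pair lies at chr13:83625265-83625408 (144 bases, here the upstream exon) and chr13:83625470-83625607 (138 bases, the downstream exon). The pair is shown because Mef2c transcripts with the downstream exon were higher in both KO libraries than in both WT libraries. The sequences are those of the GENCODE vM21 transcripts (GRCm38, plus strand), 5′ to 3′, with capitals where the 2 exons differ in a global alignment.
Mef2c upstream exon: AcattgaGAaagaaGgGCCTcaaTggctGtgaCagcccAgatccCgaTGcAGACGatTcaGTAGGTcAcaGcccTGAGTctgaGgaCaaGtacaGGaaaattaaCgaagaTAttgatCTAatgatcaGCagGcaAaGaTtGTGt
Mef2c downstream exon: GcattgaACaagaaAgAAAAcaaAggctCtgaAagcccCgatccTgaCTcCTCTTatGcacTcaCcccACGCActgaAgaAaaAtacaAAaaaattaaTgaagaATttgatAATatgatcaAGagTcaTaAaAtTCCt
The Mef2c exons were identical at 90 of 144 alignment columns (62.5%). The downstream exon of Mef2c was 77.5% identical to the downstream exon of Mef2a and 65.2% identical to that of Mef2d. The upstream exon was 65.3% identical to the upstream exon of Mef2a and 63.9% identical to that of Mef2d.

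Transcripts of Mef2c with the downstream exon had estimated counts of 189 in KO 1 and 276 in KO 2, whereas WT 1 had 86.3 and WT 2 had 54.2. Both KO libraries were above both WT libraries, at 7.38 and 9.46 CPM in KO against 2.75 and 1.47 in WT. Means were 8.42 ± 1.47 CPM in KO and 2.11 ± 0.900 in WT (SD, n = 2 each). Most of these counts in each library came from 1 transcript, Mef2c-201 (ENSMUST00000005722), with 176 and 268 counts in KO against 86.3 and 37.2 in WT. In WT 2 a further 17.1 counts came from Mef2c-202. Transcripts with the upstream exon had 14.6 and 5.92 CPM in KO against 9.47 and 10.4 in WT, so for these the KO libraries lay on either side of WT. The downstream exon was thus in 33.1% and 61.5% of Mef2c counts in KO, against 22.01% and 11.8% in WT. KO was higher within each prefix, at 33.1% in KO 1 against 11.8% in WT 2 and at 61.5% in KO 2 against 22.01% in WT 1. With TPM in place of counts the mean share was 46.4% in KO and 13.4% in WT, against 47.3% and 16.9% with counts, an alternative chosen after seeing the data. The fibre markers moved with the downstream exon by group, but not between the KO libraries. Their summed level was 2971 CPM in KO 1 and 2757 in KO 2, while the downstream exon was at 7.38 and 9.46 CPM. The part of the fibres in the exon values was not tested.

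The same split did not separate the groups in that direction for the other MEF2 genes. The downstream exon was in 4.14% and 4.78% of Mef2a counts in KO against 7.61% and 6.15% in WT. For Mef2d it was in 0.508% and 2.38% in KO against 3.06% and 2.84% in WT. For each of these genes, both KO shares lay under both WT shares. In Mef2d the downstream exon is annotated in a single transcript of 1767 bases, Mef2d-202. Of those with the upstream exon, Mef2d-203 is of similar length (1791 bases), while Mef2d-201 and Mef2d-204 are longer (5401 and 3488 bases). kallisto splits reads among transcripts that differ at their ends as well as in these exons, so the shares are estimates for whole transcripts and no count of reads over the exon was made.

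**Figure D3:**
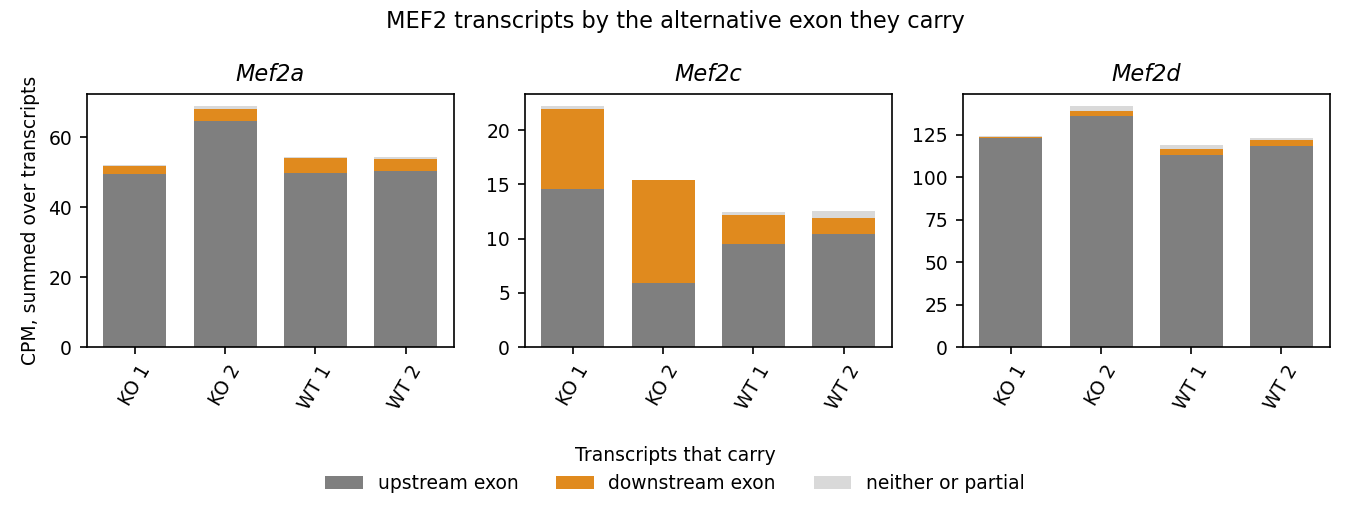
CPM summed over the transcripts of Mef2a, Mef2c and Mef2d (vertical axes, each from 0) in each library, stacked by the alternative exon that the transcripts carry. The orange part, transcripts with the downstream exon, is 7.38 and 9.46 CPM of Mef2c in KO and 2.75 and 1.47 CPM in WT, and a small part of Mef2a and Mef2d in each library.

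Mef2c-201 also differs in where it starts, at position 83504240, while Mef2c-212 (ENSMUST00000197146), the main transcript with the upstream exon, starts at 83573607. Mef2c-212 had 355 and 173 counts in KO against 268 and 357 in WT. The windows before the RefSeq start sites at 83504034 and 83573607 are shown because the transcript that was higher in KO starts near the distal site and the other at the proximal site. They are printed for the plus strand (GRCm38.p6, chr13:83503784-83504033 and chr13:83573357-83573606), with CANNTG and the MEF2 core in capitals.
Mef2c distal promoter: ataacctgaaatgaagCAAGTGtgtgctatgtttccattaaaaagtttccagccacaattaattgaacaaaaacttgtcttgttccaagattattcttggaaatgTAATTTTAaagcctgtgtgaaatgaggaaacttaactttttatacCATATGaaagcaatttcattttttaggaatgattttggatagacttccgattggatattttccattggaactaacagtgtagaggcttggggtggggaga
Mef2c proximal promoter: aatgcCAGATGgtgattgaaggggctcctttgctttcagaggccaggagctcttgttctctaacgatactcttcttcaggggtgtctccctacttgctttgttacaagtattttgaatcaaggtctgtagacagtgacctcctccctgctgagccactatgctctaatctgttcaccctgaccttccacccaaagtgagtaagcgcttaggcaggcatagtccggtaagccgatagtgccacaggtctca
The distal window held 2 E-boxes, CAAGTG and CATATG, and 1 MEF2 core, TAATTTTA, with no overlap among them. The proximal window held 1 E-box, CAGATG, and 0 MEF2 cores. The window of a further RefSeq start site of Mef2c between them, at 83523656, held 0 E-boxes and 0 MEF2 cores and is not printed. An E-box is in 66.2% of windows of this length, so its presence sets neither the distal nor the proximal window apart. Among the regulators with a promoter sequence at hand, the windows of Pax7, Myf5, Mef2a and Mef2d held neither motif.

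Other cell types that contain MEF2C were measured beside it. The 5 endothelial markers had a summed level of 1139 and 678 CPM in KO against 606 and 885 in WT, and 0 of the 5 passed. The 5 B cell markers summed to 8.98 and 1.51 CPM in KO against 2.58 and 4.54 in WT, and 0 of the 5 passed. None of these markers was at 0 in any library. KO 1 was highest for both sums and for Mef2c transcripts with the upstream exon, and KO 2 was lowest for the B cell sum and for those transcripts. The part of these cells in the Mef2c values was not tested. In bulk tissue, fewer cells of a type and less RNA per cell cannot be told apart.

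The prefix of the library names was not used in choosing the genes, and its difference (S2 over S1, with genotype in the fit) could be tested. It was -0.27 on the log2 scale for Mef2c (SE 0.17), 0.20 for Mef2a (SE 0.16) and 0.07 for Mef2d (SE 0.15). None of these 3 passed (edgeR adjusted p = 0.414, 0.511 and 0.841), while 3.14% of all genes tested did. Myf6 had reads in KO alone, so its prefix difference is that between the KO libraries and carries no test, and Pax7, Myf5, Myod1 and Myog had too few reads. The fit leaves 1 residual degree of freedom, so its errors rest largely on variation pooled across genes.

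Genes that work with these factors are described by list. The lists were written with earlier results of these data known, and some genes passed the filter on low counts through the KO libraries alone. Nothing is therefore read from how many genes of a list passed. Of 15 satellite cell genes other than Pax7 and Myf5, 9 were tested and 0 passed in either direction, with 1 at an unadjusted p under 0.05. Their median log2 fold change was -0.02, against 0.0020 over all genes tested, where 0.767% rose and 0.0128% fell. Peg3, an imprinted zinc-finger gene of progenitor cells, was at 88.6 and 46.9 CPM in KO against 36.2 and 38.5 in WT (adjusted p = 0.9998). Sdc4, a syndecan, was at 45.1 and 75.3 CPM in KO against 67.6 and 75.4 in WT, and the Notch target Hey1 at 15.3 and 7.26 in KO against 6.43 and 10.5 in WT. The teneurin Tenm4 was at 20.7 and 28.3 CPM in KO against 28.2 and 33.5 in WT. The genes of this list that were not tested are named after their values were seen. Cdh15, M-cadherin of satellite cells and myoblasts, had 13 and 3 reads in KO against 0 and 0 in WT, and no fold is given for so few reads. Megf10 had 7 and 2 reads in KO against 4 and 5 in WT, and Chodl had 7 and 12 against 8 and 11. Fgfr4 had 3 and 4 reads in KO against 0 and 1 in WT. Pax3 had 0 and 0 against 0 and 1, and Calcr had 0 in each library.

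Of 20 genes of myoblast differentiation and fusion, 17 were tested and 0 passed, with 2 at an unadjusted p under 0.05. The median log2 fold change was 0.09. Mymk, the fusion protein myomaker, had 3 and 0 reads in KO against 0 and 0 in WT, and its partner Mymx had 0 reads in each library, both named after their values were seen. When the prefix was a block, 2 genes passed, against 1.57% of all genes higher and 0.473% lower in KO. They were Stac3, an adaptor of the calcium release machinery, at 5.31 and 5.10 CPM in KO against 0.637 and 1.14 in WT, and Cav3, the caveolin of muscle membranes, with 29 and 15 reads in KO against 0 and 0 in WT. Without a block their adjusted p was 0.0664 and 0.169, and Cav3 passed the filter on low counts through the KO libraries alone. Cdh2, N-cadherin, was at 23.6 and 35.04 CPM in KO against 45.02 and 33.0 in WT, and the myoferlin gene Myof at 7.03 and 9.15 in KO against 9.71 and 13.8 in WT.

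Of 18 further regulators of mature fibres, 13 were tested and 0 passed, with 5 at an unadjusted p under 0.05. Their median log2 fold change was 0.55. The median was the same with the genes at 0 in WT set to their bound. Smyd1, a muscle methyltransferase, was at 10.8 and 8.97 CPM in KO against 1.08 and 2.37 in WT (adjusted p = 0.0925). Vgll2, a cofactor of TEAD factors, had 17 and 29 reads in KO against 0 and 0 in WT, at least 19.1-fold higher (adjusted p = 0.0985). Csrp3, the muscle LIM protein, was at 25.9 and 3.70 CPM in KO against 0 and 0 in WT, at least 320-fold higher (adjusted p = 0.205), with a wide gap between the KO libraries. Ankrd2, an ankyrin repeat protein of slow fibres, was at 6.13 and 2.12 CPM in KO against 0.0955 and 0.136 in WT (adjusted p = 0.0584). Vgll2 and Csrp3 passed the filter on low counts through the KO libraries alone, and the list was written with earlier results of these data known. Nothing is therefore read from the counts that follow. With the prefix as a block Smyd1, Vgll2, Csrp3 and Ankrd2 passed, against 1.57% of all genes higher and 0.473% lower in KO. The count was also 4 without WT 1 or without WT 2, and 2 without KO 1 or without KO 2.

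No change was called among the dimer partners and antagonists of the bHLH factors. Of the 18 genes, which include the E proteins Tcf3, Tcf4 and Tcf12 and the inhibitors Id1 to Id4, all 18 were tested, 0 passed with or without the prefix block, and 0 had an unadjusted p under 0.05. Log2 fold changes ranged from -0.42 to 0.44. Id1, which sequesters E proteins, was at 45.5 and 21.2 CPM in KO against 25.5 and 23.7 in WT. Twist1, which blocks MYOD1 activity, was at 5.66 and 5.93 CPM in KO against 6.18 and 7.43 in WT. Zeb1, a repressor that competes for E-boxes, was at 46.1 and 42.6 CPM in KO against 52.2 and 51.3 in WT, and Mdfic, a relative of the inhibitor Mdfi, was at 18.9 and 28.5 in KO against 33.0 and 24.6 in WT. DESeq2 also called 0 of them.

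Of 29 cofactors and signalling genes of MEF2, all 29 were tested and 1 rose, against 0.767% of all genes tested. That was Camk2a, a calcium/calmodulin kinase whose family releases MEF2 from class II histone deacetylases, at 5.66 and 5.99 CPM in KO against 0.828 and 0.626 in WT (log2 fold change 3.002, SE 0.31, adjusted p = 0.0193). Without KO 2 its log2 fold change was 2.96 and the adjusted p 0.0758. The median of the list was -0.0048. Map2k6, a kinase upstream of p38, was at 2.46 and 2.91 CPM in KO against 8.18 and 3.92 in WT, the TEAD factor Tead4 at 4.14 and 5.07 in KO against 1.97 and 2.88 in WT, and Vgll3 at 1.44 and 2.40 in KO against 4.23 and 2.69 in WT. None of these 3 passed (adjusted p = 0.9998 each).

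Genes of developing muscle and of the neuromuscular junction include known targets of myogenin. Of 15 developmental genes 10 were tested, 0 passed and 5 had an unadjusted p under 0.05, with a median log2 fold change of 0.94. When the prefix was a block, 4 rose, against 1.57% of all genes tested. They were Actc1, cardiac actin, at 0.976 and 0.411 CPM in KO against 0.0637 and 0.0272 in WT, Chrna1, the acetylcholine receptor alpha subunit, at 0.625 and 0.651 in KO against 0.0318 and 0.0272 in WT, Myl1 at 183 and 99.0 in KO against 38.7 and 44.3 in WT, and desmin (Des) at 149.96 and 88.8 in KO against 38.8 and 48.5 in WT. The 7 markers of smooth muscle and mural cells, which also contain desmin, summed to 608 and 558 CPM in KO against 530 and 533 in WT, most of it from Rgs5 at 403 and 436 in KO against 423 and 394 in WT. Their contractile genes were higher in KO 1, with smooth muscle actin (Acta2) at 51.7 and 31.96 CPM in KO against 24.8 and 26.8 in WT and calponin (Cnn1) at 3.24 and 1.44 in KO against 0.860 and 0.952 in WT. Of the 6 markers tested 0 passed, 2 had an unadjusted p under 0.05, and the median log2 fold change was 0.61. The part of these cells in the values of Des was not tested. The genes in the rest of this account of developmental muscle were chosen after their values were seen. The embryonic myosin Myh3 had 6 and 0 reads in KO against 0 and 1 in WT, and the perinatal myosin Myh8 had 11 and 2 reads in KO against 1 and 0 in WT. The fetal acetylcholine receptor subunit Chrng had 0 and 1 reads in KO against 0 and 0 in WT. Its adult counterpart Chrne had 5 and 8 reads in KO against 0 and 0 in WT, and no fold is given for so few reads.

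Of the 14 neuromuscular genes 9 were tested, 1 rose, against 0.767% of all genes tested, and 2 had an unadjusted p under 0.05. The gene that rose was Scn4a, the sodium channel of muscle fibres, at 8.67 and 11.7 CPM in KO against 0.223 and 0.136 in WT (log2 fold change 5.81, SE 0.38, adjusted p = 0.00305). With 1 library left out its log2 fold change ranged from 5.49 to 6.18. These values are a description, since the list was written with earlier results of these data known. Dok7, an activator of the receptor kinase MuSK, was at 0.859 and 0.925 CPM in KO against 0.287 and 0.653 in WT, and acetylcholinesterase (Ache) at 1.80 and 1.16 in KO against 0.350 and 1.06 in WT. Neither passed (adjusted p = 0.9998 each). Chrna1, described above, is also in this list and passed with the prefix as a block.

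The structural and metabolic genes of mature fibres are those whose difference led to the choice of the regulators, so their values are a description. All 26 were tested and 25 rose, against 0.767% of all genes tested, with a median log2 fold change of 9.81. Myh1, a fast adult myosin, had 7592 and 7641 reads in KO against 3 and 3 in WT, and Myh4, the myosin of the fastest fibres, had 13318 and 17951 reads in KO against 0 and 0 in WT. The 1 gene that did not pass was myoglobin (Mb), the oxygen store of fibres, at 112 and 60.9 CPM in KO against 1.05 and 13.4 in WT (adjusted p = 0.770), and it passed with the prefix as a block. Myh7, the slow myosin, had 580 and 447 reads in KO against 1 and 1 in WT. The embryonic myosin Myh3, by comparison, had reads in KO 1 and WT 2 alone. Of 8 cardiac markers Myl7, Nppb and Nkx2-5 were at 0 in each library. Nppa had 6 and 0 reads in KO against 4 and 0 in WT, and Myh6 had 2 and 0 reads in KO against 0 and 1 in WT. The marker that was tested, Myl3, is also a light chain of slow skeletal fibres and rose, with 68 and 66 reads in KO against 12 and 13 in WT (adjusted p = 0.0491). These cardiac genes were chosen after their values were seen.

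**Figure D4:**
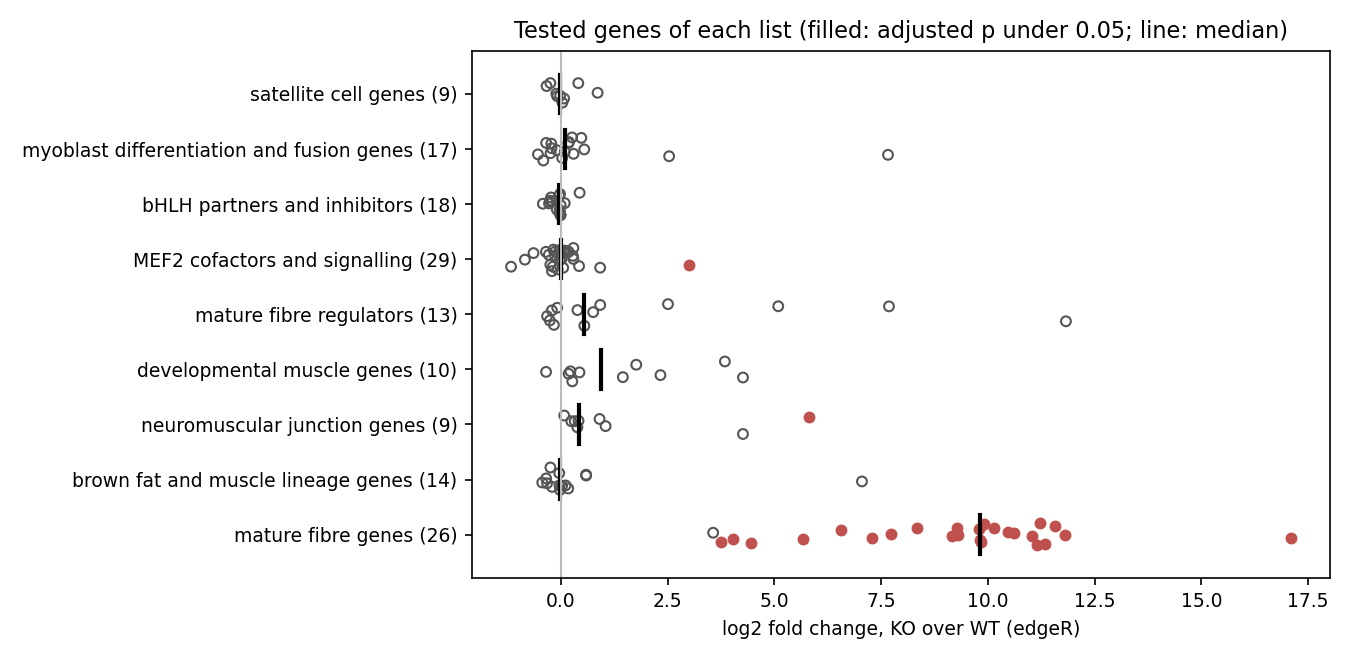
Log2 fold change of KO over WT (horizontal axis) for each tested gene of 9 lists, with the number tested in brackets, filled points for an adjusted p under 0.05 and a line at each median. The 26 mature fibre genes centre on 9.81 and the other medians lie between -0.03 and 0.94, and points of genes with 0 reads in WT are fitted values that depend on the prior count.

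Genes of the lineage shared by brown fat and muscle were set beside them. Of 15 genes 14 were tested, 0 passed, 1 had an unadjusted p under 0.05, and the median log2 fold change was -0.03. Prdm16, which favours brown fat over muscle, was at 30.2 and 25.2 CPM in KO against 33.7 and 35.7 in WT. Pdgfra, a receptor of adipocyte progenitors, was at 10.39 and 10.55 CPM in KO against 12.4 and 15.9 in WT, and the 5 fibroblast and progenitor markers summed to 263 and 451 CPM in KO against 495 and 731 in WT. The part of those cells in the values of this list was not tested. Meox1, a homeobox gene of the embryonic somite, was at 7.57 and 13.5 in KO against 7.39 and 6.61 in WT. Lbx1, a homeobox gene of migrating muscle precursors, had 17 and 12 reads in KO against 0 and 0 in WT, at least 12.0-fold higher. It passed the filter on low counts through the KO libraries alone. With the prefix as a block it passed the edgeR test (adjusted p = 0.0173, against 0.183 without). Nothing is read from that pass, since the list was written with earlier results of these data known.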

How the data were processed

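RNA of 4 brown adipose libraries (2 KO, 2 WT) was sequenced from stranded TruSeq mRNA libraries, per the labels' protocols. The authors deposited, per the file headers, an estimated count and a TPM value for each of 141450 transcripts. kallisto 0.45.0 and mm10 are named in the submitters' processing notes. The sources used here do not give the transcript set or the strand setting. The lengths and effective lengths in the deposited files, in bases, were the same in each library.

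Transcripts were assigned to genes of GENCODE vM21 (GRCm38) by identifier without version, which matched 97.7%. The 3259 unmatched transcripts held 0.992 to 1.04% of counts and were left out. Per gene, estimated counts were added up and then rounded to whole numbers, and TPM values were added up. The test was edgeR 4.0.16's quasi-likelihood test (R 4.3.3) with TMM scaling, filterByExpr (minimum count 10, minimum total 15) and Benjamini-Hochberg adjustment over 15643 genes. SEs come from the fold change and its F statistic. CPM uses TMM-scaled totals. limma 3.58.1 and DESeq2 1.42.0 served as alternatives. The regulators, the lists and the markers were chosen with earlier results of these data known. Of each list up to 4 tested genes with the smallest p, and any called, are named. For the mature fibre list only 3 of these are printed. Promoter sequences are from RefSeq (GRCm38.p6), in which Myog, Pax7, Myf5, Mef2a, Mef2c and Mef2d matched. Same-numbered KO and WT libraries are not said to be paired, so the main fit has no block.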

Additional observations from a re-analysis of the deposited data

How the results depend on the processing

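The count of 122 genes between KO and WT was 457 with no filter, 320 with the prefix as a block, 218 with DESeq2 and 78 to 205 with 1 library left out (78 without KO 2, 187 without WT 1, 205 without WT 2). The causes of these moves were not tested. Of the 8 regulators 0 passed, but 1, Myf6, did with no filter, with the replicate block, with the prefix block and with DESeq2, and with 1 library left out the count was 1 without WT 1 or WT 2 and 0 without KO 1 or KO 2 (adjusted p = 0.140 and 0.149). With the replicate block, the number in the titles as a term, 164 genes passed. Same-numbered libraries deviated from their group means with a correlation of -0.382, and with 2 libraries a group that of same-prefix ones, 0.382, is its mirror image. By the labels the crossed pairing is the prefix block. The 491 genes that differed by prefix were 1446 with no filter, 1 without the genotype term and 0 to 1 with 1 library left out, where genotype could not be in the fit. In those last fits the prefix difference ranged from -7.37 to 6.85 for Myf6, -0.68 to 0.15 for Mef2c and -0.059 to 0.20 for Mef2d, and so changed sign. The fold change of KO over WT was positive for Myf6 in 9 of 9 alternatives that tested it. With 0 reads in both WT libraries it could not be otherwise, so nothing is read from that sign. For Mef2c the fold change kept its sign in 11 of 11 alternatives. The fold change was negative for Mef2a in 2 of 11 (without KO 2, and with limma on log2(TPM + 1)) and for Mef2d in 1 of 11 (limma). Depth limits Pax7, Myf5, Myod1 and Myog, where single reads decide each value.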
